A study of Mus musculus with 2 samples.

Results

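The keratins of the hair cortex were examined in dorsal skin of newborn mice lacking Sdr9c7 and of wild type mice. They are a set of 10 genes, of which Krt31, Krt33a, Krt33b, Krt34, Krt35 and Krt36 encode type I (acidic) keratins and Krt81, Krt83, Krt85 and Krt86 encode type II (basic) keratins. Every probe whose gene name in the scanner files was one of these was taken, which gave 14 of 39429 probes on the array and 10 of the 31044 genes they were assigned to. The knockout sample was Sdr9c7-/- skin on the C57BL/6J background at postnatal day 0, and the wild type sample came from mice of the same background and age. Each genotype was represented by 1 array, hybridised with RNA pooled from the skins of 5 animals, and the differences given here have no replicate check, no test and no p-value. The samples are labelled as skin, whereas the series' design text speaks of epidermis. The RNA held muscle, fat and dermal transcripts well above background, so the sample was not epidermis alone.

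The shaft of a hair is built by matrix cells at the base of the follicle, which stop dividing, move upward and fill with keratin filaments. A type I and a type II hair keratin pair into a heterodimer, and these assemble into filaments that are embedded in keratin-associated proteins and linked to them by disulfide bonds. The cortex is the bulk of the shaft, the cuticle covers it, and the inner root sheath moulds it from outside. In human follicles, KRT35 and KRT85 are known as the earliest hair keratins, present in the matrix and in the lower cortex and cuticle, and the other members appear later, as cells of the cortex differentiate. KRT81, KRT83 and KRT86 are known in people for mutations that cause monilethrix, a disorder of beaded and fragile hair.

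All 10 hair cortex keratins gave a lower signal in the knockout than in the wild type. The log2 difference, knockout minus wild type, lay between −1.001 for Krt83 and −0.28 for Krt81, with a median of −0.83, or 1.77-fold lower. At least 1.5-fold lower were 8 of the 10, against 6.05% of 22719 measured genes. At least 2-fold lower was 1, Krt83, against 1.36% of measured genes. None was higher by 1.5-fold or more, which 2.36% of measured genes were, or by 2-fold or more (0.528%). The median over all measured genes was −0.04, and 56.9% of them were below 0. In RNA of a whole tissue, fewer cells of a type and less RNA per cell cannot be told apart.

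Probes for 3 of the type II members, Krt81, Krt83 and the first of Krt85, covered the same stretch of sequence, and the differences of these members have to be read with it. The Krt81 and Krt83 probes are shown for this reason, written 5′ to 3′ as in the scanner files, with capitals where both agree.
Krt81: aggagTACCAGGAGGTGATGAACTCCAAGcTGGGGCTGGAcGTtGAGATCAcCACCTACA
Krt83: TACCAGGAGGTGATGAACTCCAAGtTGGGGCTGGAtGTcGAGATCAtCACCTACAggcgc
These probes shared 51 of 55 aligned bases. Counted from 1 at the 5′ end of the Krt81 probe, the Krt83 probe differed from it by C30T, C41T, T44C and C52T. A search of 39429 array probes for 40 or more bases identical to either found only these and the first Krt85 probe. Among the other pairs of the 91 that the 14 member probes form, the most identical bases in the best ungapped alignment was 26.

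The names of these probes also overlap. The probe that the files call Krt83 lies on chromosome 15 from 101263556 to 101263615, minus strand (mm9), and its accession is listed under Krt87 in the RefSeq gene table, with Krt83 as an older name; a further accession of the probe is that of the gene now called Krt83. The Krt81 probe, on chromosome 15 from 101290583 to 101290642, minus strand (mm9), also carries accessions of Krt86 and of the gene now called Krt83. The Krt81 and Krt83 probes each had at least 1 reading frame without a stop codon, but no genome of this build was used here and no probe was placed in an exon or UTR. Signals of these paralogs can be shared, and the values of Krt81, Krt83 and the first Krt85 probe are uncertain as values of 1 gene.

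Promoter sequences were at hand for 4 members, Krt31, Krt33b, Krt34 and Krt36, and are shown because these genes lie in the same stretch of the type I cluster and were all lower. Each is the 250 bases before the transcript start from RefSeq (GRCm38.p6), minus strand of chromosome 11, written 5′ to 3′, with capitals marking the letters CTTTGAAG (a form of the site bound by the Wnt effector LEF1), TTTTATGNG (a form of the A/T-rich letters bound by homeodomain proteins such as HOXC13) and TATAAA (the TATA box). Both strands were searched, and the letters were chosen with these sequences in view.
Krt31, chr11:100050552-100050801: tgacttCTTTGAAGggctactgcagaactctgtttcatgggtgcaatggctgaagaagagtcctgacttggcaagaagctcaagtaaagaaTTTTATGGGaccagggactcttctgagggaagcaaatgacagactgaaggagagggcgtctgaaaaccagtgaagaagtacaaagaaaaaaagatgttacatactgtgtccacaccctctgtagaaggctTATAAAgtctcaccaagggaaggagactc
Krt33b, chr11:100029869-100030118: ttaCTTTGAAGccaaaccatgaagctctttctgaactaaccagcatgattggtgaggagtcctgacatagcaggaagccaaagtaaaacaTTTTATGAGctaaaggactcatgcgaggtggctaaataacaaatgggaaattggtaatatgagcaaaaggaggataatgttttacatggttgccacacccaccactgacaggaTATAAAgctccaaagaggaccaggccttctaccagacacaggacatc
Krt34, chr11:100041555-100041804: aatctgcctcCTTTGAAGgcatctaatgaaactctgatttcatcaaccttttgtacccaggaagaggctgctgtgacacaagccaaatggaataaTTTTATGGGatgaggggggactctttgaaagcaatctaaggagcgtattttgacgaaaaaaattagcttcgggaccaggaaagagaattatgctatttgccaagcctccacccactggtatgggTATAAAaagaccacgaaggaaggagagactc
Krt36, chr11:100105627-100105876: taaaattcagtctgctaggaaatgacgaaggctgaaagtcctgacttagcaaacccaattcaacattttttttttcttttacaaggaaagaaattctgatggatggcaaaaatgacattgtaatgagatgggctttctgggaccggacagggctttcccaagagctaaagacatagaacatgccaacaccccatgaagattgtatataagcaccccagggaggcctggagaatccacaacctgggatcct
Krt31, Krt33b and Krt34 held all 3 runs of letters in the same order. CTTTGAAG began 244 bases before the start in Krt31, 247 in Krt33b and 240 in Krt34, and TTTTATGNG began 159, 160 and 155 bases before it. TATAAA began 29 bases before the start in Krt31 and 31 in Krt34, but 47 in Krt33b. Krt36 held none of the 3 in these exact letters. Its window does hold tatataag, a TATA-like run that the search for TATAAA does not match. Over 32851 promoter windows of this length, CTTTGAAG was found in 1.42%, TTTTATGNG in 0.843% and TATAAA in 12.4%. The letters were not particular to the cortex keratins: of 5 other hair keratins with a promoter window, 2 held CTTTGAAG, 4 TTTTATGNG and 3 TATAAA. These counts include hits placed otherwise than in the members. CTTTGAAG in Krt39 was on the opposite strand, 20 bases before the start. TATAAA in Krt84 was on the opposite strand too, at 206 bases. Krt32 held all 3, at 247, 159 and 29 bases before its start, with a further TATAAA at 88. Krt84, whose signal was higher in the knockout, held TTTTATGNG. A match is a description of the letters, not a binding site, and the absence of a match in Krt36 says nothing about the factors. Krt36 was as low in the knockout as the other 3 members, as given below. Any link between these letters and the differences, in Krt36, Krt84 or the others, was not tested.

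Signals are given relative to the 75th percentile of all probes on the same array, so that 1 equals that percentile, and levels of different probes are not set against each other. Krt35, the early type I hair keratin, had a relative signal of 8.40 in knockout skin and 12.8 in wild type skin, a log2 difference of −0.60. Krt85, the early type II partner, had 3 probes. The first, in the shared stretch, read 4.07 in the knockout and 4.57 in the wild type (−0.17). The second read 3.02 in the knockout and 4.83 in the wild type (−0.68), and the last read 0.433 in the knockout and 0.667 in the wild type (−0.62). The Krt85 probes outside the shared stretch thus lay close to Krt35, whereas the probe within it was nearly level. The mean over the 3 was −0.49, and over the 2 outside the shared stretch −0.65. On mm9 the files place these 2 at chr15:101261695-101261754 and chr15:101346117-101346176, both on the minus strand and 84.4 kb apart. The first of those positions is 1.86 kb from the probe named Krt83, so which gene it reads is uncertain.

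**Figure D1:**
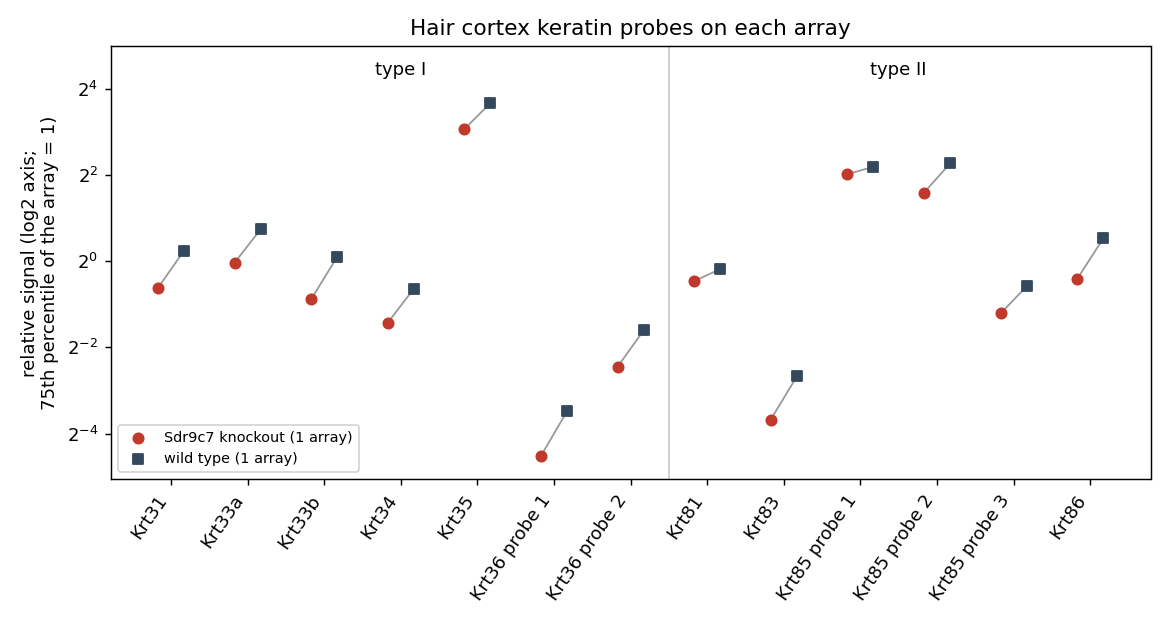
Relative signal of the 13 hair cortex keratin probes that were well above background (log2 axis, 75th percentile of the array = 1), with the knockout array as red circles left of the wild type array as dark squares and a line joining each probe. Probes of a gene are numbered from the 5′ end of the transcript; every probe is lower in the knockout, with the smallest gap at the first Krt85 probe (4.07 in the knockout, 4.57 in the wild type).

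The type I keratins of the differentiating cortex were lower by similar amounts. Krt33b had a relative signal of 0.543 in the knockout and 1.07 in the wild type, 1.98-fold lower. Krt31 read 0.651 in the knockout and 1.19 in the wild type, 1.82-fold lower. These genes, with Krt33a and Krt34, lie next to each other in the type I cluster. Krt34 read 0.372 in the knockout and 0.643 in the wild type, a log2 difference of −0.79. Krt33a read 0.978 in the knockout and 1.67 in the wild type, at −0.77. Krt36, known in mice also from the tongue and nail, had 3 probes, of which 1, designed to a clone rather than to the reference transcript, was not well above background on either array. Its other probes read 0.0437 and 0.183 in the knockout, against 0.0894 and 0.329 in the wild type. Their log2 differences were −1.03 and −0.85, with a mean of −0.94. All 6 type I members were at least 1.5-fold lower and none was at least 2-fold lower, with a median of −0.83.

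The type II members were less uniform. Krt86 had a relative signal of 0.753 in the knockout and 1.44 in the wild type, 1.92-fold lower, and its probe, on chromosome 15 from 101310355 to 101310414, plus strand (mm9), shared no such stretch with another member. Krt83 read 0.0784 in the knockout and 0.157 in the wild type, 2.001-fold lower. Krt81 read 0.726 in the knockout and 0.882 in the wild type, 1.21-fold lower. Within the stretch of near-identical sequence the differences therefore ran from −1.001 to −0.17, whereas the 10 measured probes outside it lay between −1.03 and −0.60. The median of the 4 type II members was −0.72. How much of that range belongs to the probes was not tested.

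**Figure D2:**
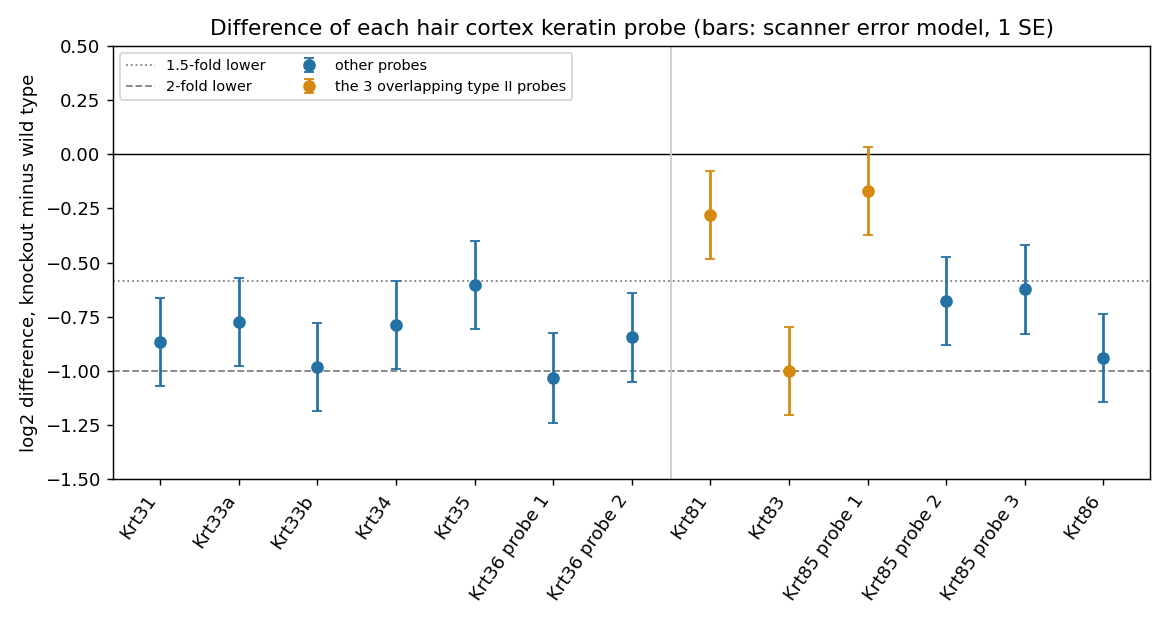
Log2 difference, knockout minus wild type, of each measured hair cortex keratin probe, with bars of 1 standard error from the scanner's error model and lines at 1.5-fold and 2-fold lower. The 3 overlapping type II probes (orange) run from −1.001 to −0.17, and the other probes (blue) lie between −1.03 and −0.60.

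These differences were set against what the array itself scatters. Among 260 probes that were printed at 8 or more usable spots and lay within the signal range of the members, repeated spots of a probe scattered with a median SD of 0.05 in their log2 difference, and at most 0.26. Different probes of a gene scattered with a pooled SD of 0.25, taken over 5176 genes that had 2 or more measured probes. The scanner's own error model gave a standard error between 0.20 and 0.21 for a member's difference. Krt81 at −0.28 and the first Krt85 probe at −0.17 were about as far from 0 as the probe SD and the scanner error. Both were further from 0 than the median SD of repeated spots. Krt85 as a gene at −0.49 was just under 2 times the probe SD. The other 8 members were more than 2 times that SD from 0. None of these errors holds the difference between animals, litters or dissections.

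All 13 measured probes were well above background on both arrays, but values of the dimmest members changed with another background correction (normexp). It was run with an offset of 50 added on both arrays, which by itself draws differences of dim spots toward 0. Krt83 went from −1.001 to −0.78 and Krt36 from −0.94 to −0.76. How much of this came from the offset was not tested. The dimmest probe, of Krt36, had a raw mean of 144 in the knockout and 226 in the wild type. Processed intensities of the 13 measured probes ran from 84.0 to 16144 in the knockout and from 156 to 22300 in the wild type, and the local background around these spots was between 31 and 39 in the knockout and between 32 and 40 in the wild type. No member spot was saturated or marked as an outlier. The median log2 difference of the neighbouring detected spots, within 8 rows and 4 columns, lay between −0.07 and 0.05 for the members, so that none sat in an area where the arrays differed broadly. Of the 13 probes, 3 (those of Krt35 and Krt86 and the second Krt85 probe) lay in bands of rows in which dim spots scattered more between the arrays. With the bands and a damaged block left out, Krt35 and Krt86 had no value, and all 8 remaining members were below 0. At least 1.5-fold lower were 6 of them, against 5.56% of the genes then measured.

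Across the slide as a whole, 76.8% of 39417 probes were well above background on the knockout array and 74.9% on the wild type array, with 0 saturated spots. Sdr9c7 had a relative signal of 0.0479 in the knockout and 0.324 in the wild type (log2 difference −2.76). It was read by 1 probe, in 1 of the scattering bands, and the sources used here do not say whether that probe lies in the deleted part. Both arrays were on the same slide, and the array with its labelling cannot be told apart from genotype.

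Other transcripts of the hair shaft were lower with the cortex keratins. The keratin-associated proteins, which form the matrix between the filaments, had 46 measured members of 53 on the array. Of these, 45 were below 0, 37 at least 1.5-fold lower and 15 at least 2-fold lower, with a median of −0.89, close to the −0.83 of the cortex keratins. The lowest were Krtap3-2 (−1.68), Krtap19-9b (−1.40), Krtap7-1 (−1.38), Krtap6-1 (−1.26) and Krtap22-2 (−1.15). Some of these were dim. Krtap19-9b had a relative signal of 0.0158 in the knockout and 0.0418 in the wild type, and Krtap7-1 0.0413 and 0.108. After normexp correction the median of the list was −0.75. The highest were Krtap31-1 (0.28), Krtap12-1 (−0.03), Krtap9-5 (−0.26), Krtap10-10 (−0.28) and Krtap5-4 (−0.35).

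The other hair keratins were divided. Krt87 was not counted among them, because its accession belongs to the probe named Krt83. Krt32 and Krt82, known from the cuticle of the human hair, were at −0.76 and −0.66, and Krt40 was at −0.63. Krt84, known from the tongue, gave a higher signal in the knockout, at 0.58, just short of 1.5-fold, with a relative signal of 0.0421 in the knockout and 0.0282 in the wild type. It lies between Krt85 and Krt82, both of which were lower. Krt39 was not well above background on either array. Among other genes of the shaft and its sheath, 6 of 6 were below 0 and 3 at least 1.5-fold lower. Gprc5d, a receptor of keratinising hair cells, was at −0.72 and S100a3, a calcium-binding protein of the cuticle, at −0.60, while Padi3 and Tchh, which encode a deiminase and its substrate trichohyalin, were at −0.40 and −0.39.

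Keratins of the inner root sheath and companion layer were lower too, by a smaller amount. Of 9 genes on the array 8 were measured, all of them below 0, and 5 passed 1.5-fold, with a median of −0.60. The lowest were Krt72 (−0.91) and Krt26 (−0.69), and the highest were Krt71 and Krt75, both at −0.37. Their summed relative signal was 69.0 in the knockout and 94.1 in the wild type. Krt74 was not above background.

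**Figure D3:**
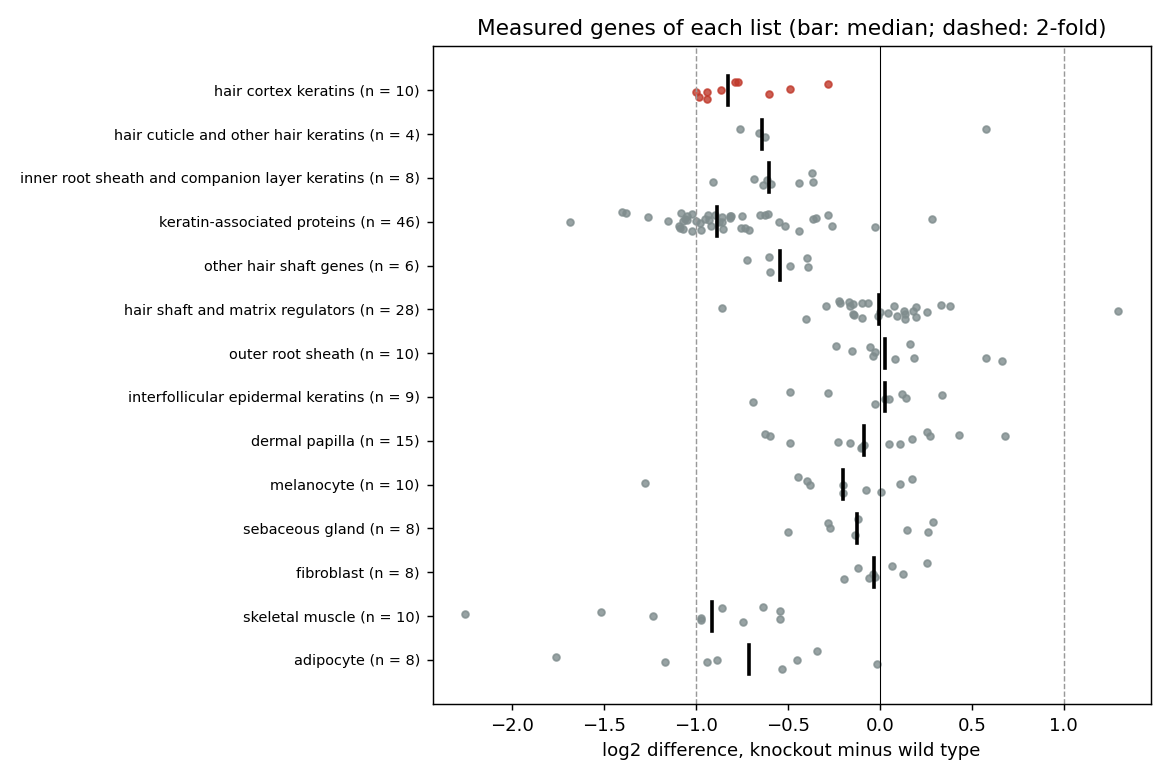
Log2 difference, knockout minus wild type, of every measured gene in each list, with a bar at the list's median and dashed lines at 2-fold. The hair cortex keratins (red, median −0.83) and keratin-associated proteins (−0.89) lie left of 0, as do skeletal muscle (−0.91) and adipocyte markers (−0.71), while regulators of the hair matrix (−0.00) and outer root sheath genes (0.03) are centred on 0.

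Genes that control the hair matrix were not lower as a group. Of 28 regulators, all measured, 14 were below 0 and 14 above, with a median of −0.00, and 1 was at least 1.5-fold lower. Hoxc13, a homeobox factor needed for hair keratin expression in mice, was level at 0.08, with a relative signal of 0.680 in the knockout and 0.644 in the wild type. Foxn1, the factor missing in nude mice, was at 0.14, Lef1 at 0.20 and Msx2, a homeobox factor of the matrix, at 0.04. The lowest were Foxq1, the satin gene of the hair medulla in mice (−0.86), and the vitamin D receptor gene Vdr (−0.40). The highest were Ovol1, a zinc finger factor of differentiating epidermis and hair (1.29), and Gli1, a target of Hedgehog signalling (0.38).

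Lists for other parts of the follicle and skin had medians closer to 0. Outer root sheath genes had a median of 0.03 over 10 members, from Krt6a (−0.24) and Lhx2 (−0.15) to Krt6b (0.58) and Krt16 (0.66). The 2 probes of Krt6b differed, at 0.12 and 1.03. Dermal papilla markers had a median of −0.08 over 15 members, with 2 at least 1.5-fold lower, of which Corin was lowest (−0.62), and with Tbx18 at 0.43 and Crabp1 at 0.68. Interfollicular keratins had a median of 0.03 over 9 members, from Krt2 (−0.69) and Krt80 (−0.49) to Krt5 (0.14) and Krt15 (0.34). Melanocyte genes, many of them active in pigmenting the hair bulb, had a median of −0.20 over 10 members, with Oca2 at −1.28 and Pmel at −0.45, and with Mitf at 0.11 and Kit at 0.17. Sebaceous gland markers had a median of −0.13 over 8 members, with Mc5r at −0.50, Scd1 at −0.28, Awat2 at 0.26 and Elovl3 at 0.29.

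Markers of tissues beneath the follicle were lower together with the hair shaft genes. All 10 skeletal muscle markers were below 0, and 8 of them passed 1.5-fold, with a median of −0.91 and a summed relative signal of 185 in the knockout and 306 in the wild type. Pvalb was lowest (−2.26), followed by Actn3 (−1.52), and Tnnc2 and Myh3 were highest, both at −0.54. All 8 adipocyte markers were below 0, with a median of −0.71 and a summed relative signal of 52.5 in the knockout and 80.1 in the wild type, from Cfd (−1.76) and Retn (−1.17) to Fabp4 (−0.34) and Pparg (−0.02). Fibroblast genes had a median of −0.03 over 8 members, with Col1a1 at −0.20, Fbn1 at −0.12, Pdgfra at 0.12 and Twist2 at 0.26. Every marker of these 3 lists was well above background on both arrays. The medians of the outer root sheath, dermal papilla, interfollicular, fibroblast and regulator lists were all within 0.13 of 0 under every alternative processing, and those of the interfollicular, fibroblast and regulator lists changed sign among them. The part of muscle, fat or the depth of dissection in the lower hair keratin signal was not tested.

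Along the keratin clusters, the hair cortex keratins lay in runs of lower genes that also took in keratins outside this set. On chromosome 11 the files place Krt40, Krt33a, Krt33b, Krt34, Krt31, Krt32, Krt35 and Krt36 in this order among the measured type I keratins. All 8 were at least 1.5-fold lower in the main processing. Krt35 (−0.60) and Krt40 (−0.63) stood close to that limit, and Krt35 no longer passed it with median scaling (−0.56). Krt40 was dim, with a relative signal of 0.0179 in the knockout and 0.0276 in the wild type. Krt32 was dim too, at 0.0362 in the knockout and 0.0614 in the wild type. The measured neighbour on the far side of Krt36 was Krt13, a keratin of mucosal epithelia, at 0.03. The neighbour before Krt40 was Krt23, at −0.68, so the run of lower values did not end with the hair keratins on that side. On chromosome 15, Krt83, Krt88, Krt81, Krt86 and Krt85 followed each other at −1.001, −0.62, −0.28, −0.94 and −0.49. Of 29 measured keratins that belonged to neither the hair nor the inner root sheath lists, 14 were below 0, 3 at least 1.5-fold lower and 3 at least 1.5-fold higher, with a median of 0.01. Those 3 lower genes were Krt2, Krt23 and Krt88, and the higher ones Krt4 (0.71), Krt12 (0.96) and Krt16, all named after their values were seen.

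**Figure D4:**
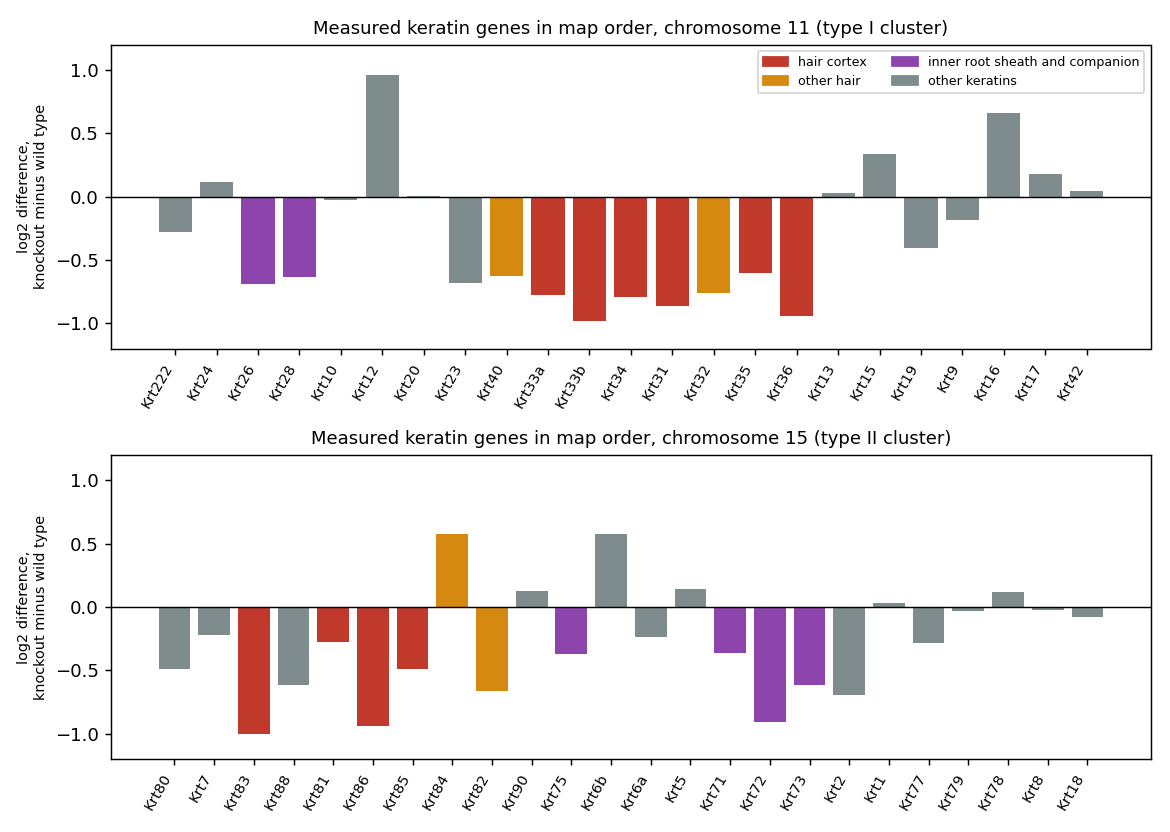
Log2 difference, knockout minus wild type, of measured keratin genes with a probe position, in map order on chromosome 11 (upper panel) and chromosome 15 (lower panel), coloured by class, each gene placed by its probe of highest coordinate. Krt14, Krt25, Krt27 and Krt4 had no probe position. The 8 hair keratins from Krt40 to Krt36 form an unbroken run between −0.60 and −0.98, whereas Krt84 (0.58) stands above 0 among the type II hair keratins.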

How the data were processed

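Total RNA (200 ng, labelled with Cy3) of newborn dorsal skin was hybridised to 1-colour Agilent arrays, per the labels' protocols. Each deposited scanner file gives a processed intensity per spot from Agilent Feature Extraction 11.5.1.1, spatially detrended per the file headers, with raw mean and background intensity and flags for dim, saturated and outlying spots. The deposited series matrix holds a ratio, equal to that intensity over a constant, which was 2080 for the knockout array and 1906 for the wild type array.

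Here processed intensity was taken to log2, 192 outlier spots were left out, spots of a probe were averaged and the 75th percentile of 39417 probes was subtracted. A gene's value is the mean over probes well above background on both arrays. Members were named by the files, and other genes through RefSeq (GRCm38.p6) accessions (28330 probes), current symbols (2204) or synonyms (174), else by the files (8721). A 2-fold and a 1.5-fold threshold were used. All 10 members, Sdr9c7, the 2 lowest and 2 highest of each list, 5 and 5 of the keratin-associated proteins, and Hoxc13, Foxn1, Lef1 and Msx2 were to be named. A gene that this rule names and a probe sequence are not reported here. Members and lists were chosen with earlier results of these data known. The averaging was tested on simulated data. Alternatives used limma 3.58.1. The number of arrays limits the precision.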

Additional observations from a re-analysis of the deposited data

How the results depend on the processing

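The 10 members kept their direction under 11 alternatives, but some of these could not change a member's value. The series matrix holds the same intensity over a constant, so scaling gave the same values. Leaving out areas or overlapping probes, or taking the brightest probe, could not move a member with 1 measured probe, only remove it. No member spot was an outlier, so keeping outlier spots moved only the scaling. Keeping dim probes could move only Krt36, which went to −0.73, and left the other members at their main values. The counts that follow include these repeats. All 106 values available were below 0, and 105 of them differed from the value reported by less than the SD between probes of a gene. The exception was Krt85 read by its brightest probe, at −0.17. The median of the members ranged from −0.83 to −0.76, and between 6 (of 8 with a value) and 8 members were at least 1.5-fold lower. Of all measured genes, between 2.69% (normexp correction) and 8.43% (no filter on dim probes) passed that limit. The normexp correction included an offset of 50, which draws differences of dim spots toward 0 and so lowers such shares. Median scaling, quantile or cyclic loess normalization and subtraction of the local median each left 7 members past it. Krt35 was then just under that limit, for example at −0.56 with median scaling. Krt83 stood at the 2-fold threshold, so the count of members at least 2-fold lower was 0 after normexp correction, median scaling, quantile or cyclic loess normalization, or with the 3 overlapping type II probes left out (an alternative chosen after seeing the data), and 2 with the local median subtracted. The type II median was −0.40 with the damaged block and bands left out, where Krt86 had no value. Of all measured genes, 0.453% were at least 2-fold lower and 0.145% higher after normexp correction, and 3.15% lower and 2.62% higher with no filter on dim probes. Spots marked as non-uniform were already left out, so that alternative was not run apart. No paired analysis was possible because each genotype had 1 array.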
